A study of Pyrus pyrifolia with 6 samples.

Results

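Plastids, the organelles that become chloroplasts in green tissue, take up most of their proteins from the cytosol, where these are made from nuclear genes and carry a targeting peptide that is read by the TOC and TIC import complexes. Besides photosynthesis, plastids make chlorophyll and heme, carotenoids, fatty acids, aromatic amino acids and the thiazole half-molecule of thiamine, so they keep a metabolic role in fruit pulp. The genes described here are 216 of 4291 (5.03%) that the authors' deposited table lists as differing between boron-treated and control pear fruit. They were chosen by their description alone, which holds the word chloroplastic and none of a set of words for photosynthesis, heat shock proteins, starch, lipoxygenases, calcium, thioredoxins, peroxiredoxins and some further classes. Of 311 listed genes described as chloroplastic, 95 were left out in this way. The members comprise 214 protein-coding genes and 2 transcribed pseudogenes on 166 scaffolds. Not all of them encode metabolic enzymes, since ribosomal proteins, import components, proteases and proteins of chloroplast movement are among them.

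Messenger RNA was sequenced from pulp of Akibae pear (Pyrus pyrifolia, also spelled Aikiba in the labels) from an orchard. Fruit had received a boron application (3 libraries) or the control treatment that the labels call CK (3 libraries), with no other difference named. The dose, the form of boron, the time of sampling and the number of fruits or trees behind a library are missing from the labels. P-values therefore measure only the spread between these libraries. Levels are normalized counts, meaning read counts per gene after division by a size factor of each library, as the authors deposited them. Means are given with their SD over n = 3 libraries, and log2 fold changes (boron over control) with their SE from limma, a linear model fitted to log2(normalized count + 1) over all listed genes. A gene passed at a Benjamini-Hochberg adjusted p under 0.05.

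The 6 libraries held between 1914312 and 2056668 reads in the listed genes, and between 104437 and 279011 reads in the members. Every listed gene had been selected on these same libraries, so a p-value here describes the size of a change against the spread and is no independent evidence that there was one. Of the 216 members, 213 passed (99.2% of all listed genes did), 151 of them higher in boron fruit and 62 lower. Over all listed genes 73.0% were higher and 26.2% lower, and the median log2 fold change was 1.62 against 1.51 for the members, so the split of the members as a whole lies near that of the table. The groups did not overlap in 211 members, while 97.7% of all listed genes had groups that did not overlap. The 3 members that did not pass were LOC103942185 (TIC 22-like), LOC103928528 (TIC 21-like) and LOC108867675 (an ankyrin repeat protein), all of which passed with edgeR and DESeq2 on the recovered reads. LOC103928528 had 1.94, 2.70 and 0.981 normalized counts in boron libraries 1 to 3 and 2.99, 82.2 and 1.08 in control libraries 1 to 3. LOC103942185 had 0.969, 0.902 and 0.981 normalized counts in boron libraries 1 to 3 and 0.997, 51.0 and 0 in control libraries 1 to 3. LOC108867675 had 84.3, 2.70 and 2.94 normalized counts in boron libraries 1 to 3 and 2.99, 8.33 and 5.40 in control libraries 1 to 3. In each of the 3 a single library stood far above the rest, control library 2 in both TIC genes and boron library 1 in the ankyrin gene. Reads of near-identical copies, overlapping genes and genes on opposite strands may have been split or shared, because no source says whether counting was stranded. Values of individual copies are uncertain to that extent.

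The level of the rises depends on scaling. TMM, DESeq2-type and quantile scaling over the listed genes, each of which brings the listed genes of all libraries to a common level, moved the median log2 fold change of all listed genes by -1.40, -1.35 and -1.25. With TMM, 69 members were higher and 67 lower, against 33.4% and 28.9% of all listed genes. Because these scalings move the listed genes downward as a whole, they are demanding only of the rises, and a fall that passes again under them is no support for it. Of the 151 rises 69 passed again with TMM, each with a log2 fold change of at least 1.80 under the authors' scaling. The 34 members that changed sign had values between 0.80 and 1.42. Whether a rise passed again thus followed largely from its size, as TMM moved the listed genes by a near common amount. Passing again with TMM, here and below, is therefore no independent support for a rise. In a second deposited table, which gives a signal-to-noise score and no fold change for 42194 genes, 54.0% of the genes with a score other than 0 lay above 0, and 50.8% of those outside the listed genes did.

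**Figure D1:**
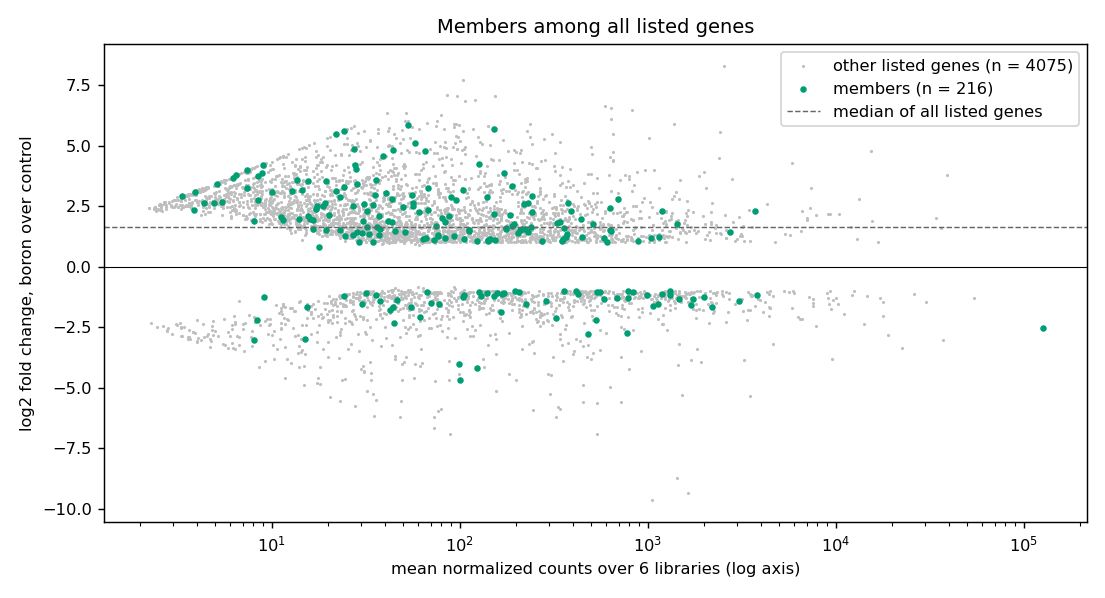
Log2 fold change (limma, boron over control) of each listed gene against its mean normalized count over 6 libraries on a log axis, with the 216 members in green, the other 4075 listed genes in grey and the median of all listed genes (1.62) as a dashed line. The band around 0 is thinly filled because the table holds genes selected for their change, and the member farthest to the right is a thiamine thiazole synthase gene that fell.

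The direction of the members followed their abundance, as it did in the table as a whole. Counted by the sign of the log2 fold change, whether or not the gene passed, 84.2% of the 19 members averaging 10 normalized counts or fewer were higher (85.2% of all listed genes in that range). In the range over 10 and up to 100 the share was 82.5% of 97 members (79.2% of all). Over 100 and up to 1000 it was 61.7% of 81 (67.1%). Among the 19 members with a mean over 1000, 31.6% were higher (42.8%). The members with the highest levels were thus mostly lower in boron fruit, and the scarce ones mostly higher.

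The change among the members that moved most reads was in thiamine synthesis. Thiamine thiazole synthase makes the thiazole part of vitamin B1, and its gene LOC103948770 (scaffold NW_008988097.1, 904725 to 907776, plus strand) was the most abundant of all 4291 listed genes in control fruit, by reads and per kilobase. It had 36719, 36659 and 38446 normalized counts in boron libraries 1 to 3 and 215299, 213055 and 218357 in control libraries 1 to 3. The control libraries all lay above the boron libraries, with a narrow spread in each group, and the log2 fold change was -2.53 ± 0.03 (adjusted p = 3.56e-12 by limma), a 5.78-fold lower mean. Per kilobase of transcript its level fell from 148260 ± 1831 to 25636 ± 698, and it ranked 6 of the listed genes in boron fruit. This gene alone took 10.6% ± 0.0207 of the listed reads in control libraries and 1.99% ± 0.0421 in boron libraries.

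Without that gene the members' share of listed reads was close between the groups, at 3.45% ± 0.0326 in boron and 3.10% ± 0.0144 in control libraries (n = 3 each). With it the shares were 5.43% ± 0.0738 and 13.7% ± 0.00834. In both cases the gene stayed in the total of listed reads, where it weighed more in control libraries. The members without it summed to 64645 ± 1163 normalized counts in boron and 63242 ± 510 in control libraries. The other 2 thiamine genes among the members were higher in boron fruit, at far lower levels per kilobase. A second thiamine thiazole synthase gene, LOC103967326, had 25.2, 27.9 and 12.8 normalized counts in boron libraries 1 to 3 and 0.997, 6.24 and 10.8 in control libraries 1 to 3. Its log2 fold change was 1.98 ± 0.66 (adjusted p = 0.0137 by limma), and the call was lost without boron library 2 (log2 fold change 1.77, adjusted p = 0.0601 by limma). Phosphomethylpyrimidine synthase, which makes the pyrimidine half-molecule of thiamine (LOC103938583), rose from 8.09 ± 5.27 to 45.8 ± 12.2 normalized counts, a change of 2.49 ± 0.46 (adjusted p = 4.33e-04 by limma). Both of these rises lost their call with TMM (log2 fold changes 0.73 and 1.15), DESeq2-type and quantile scaling, so that a rise of either gene depends on the authors' scaling.

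**Figure D2:**
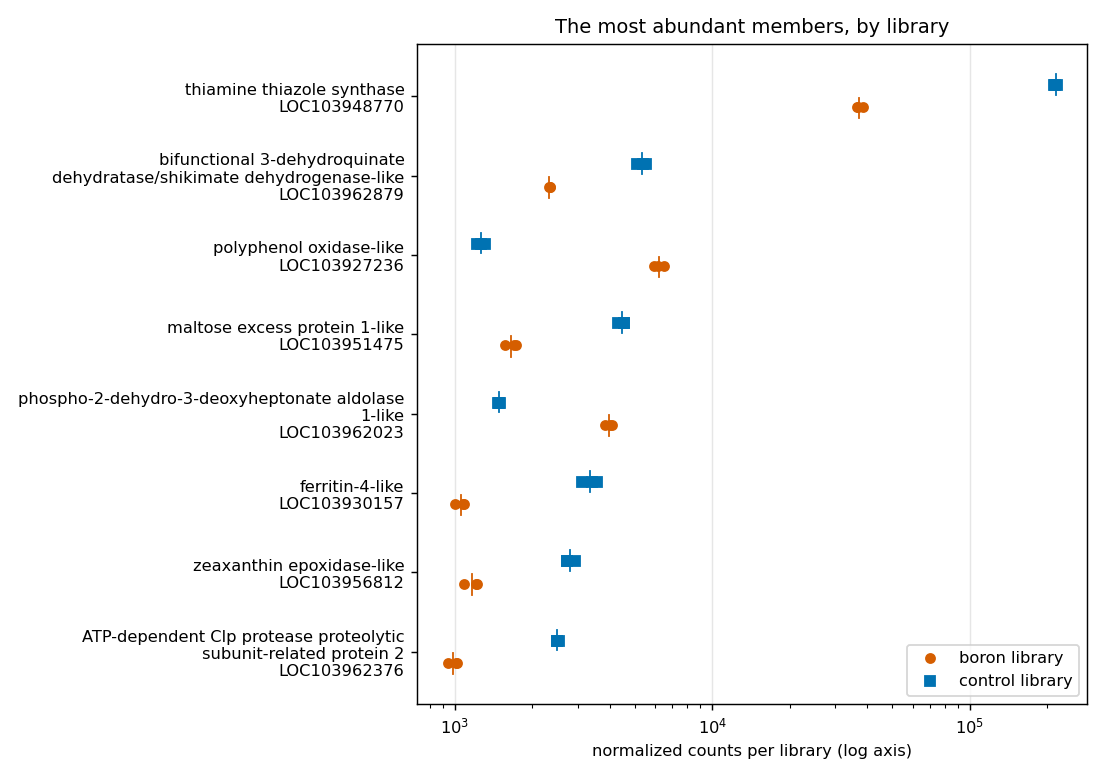
Normalized counts in each boron library (orange circles) and control library (blue squares) of the 8 members with the highest mean, on a log axis, with group means as vertical ticks. The thiamine thiazole synthase gene lies far to the right of the others, 6 of the 8 were lower in boron fruit, and no gene has overlapping groups.

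Genes of nucleotide metabolism were lower throughout. All 9 members with such a role were lower in boron fruit, with log2 fold changes from -3.03 to -1.01 (26.2% of all listed genes were lower). This grouping, like the other subgroups within roles below, was made after the values were seen. Dihydropyrimidine dehydrogenase, which opens the breakdown of uracil and thymine, had 2 genes. LOC103946911 had 606, 574 and 559 normalized counts in boron libraries 1 to 3 and 1926, 1575 and 1607 in control libraries 1 to 3, and LOC103950551 fell from 1765 ± 173 to 872 ± 7.99 normalized counts. The largest fall of the 9 was in adenine phosphoribosyltransferase 1, a purine salvage enzyme (LOC103945277), from 14.9 ± 1.34 to 1.23 ± 1.37 normalized counts. Lipoyl synthase, which makes the lipoyl cofactor of plastid dehydrogenases, was among the exceptions in the wider group of vitamins, cofactors and nucleotides (5 higher, 10 lower). Its gene LOC103940233 rose from 113 ± 19.0 to 332 ± 59.0 normalized counts, a call that TMM ended.

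Within tetrapyrrole metabolism, the shared pathway that leads to chlorophyll and heme, 12 members rose and 5 fell. That share of 70.6% higher lies near the 73.0% of all listed genes, and the direction differed by branch. The chlorophyll branch was higher in all 8 members, of which 4 passed again with TMM and 2 changed sign. With TMM 33.4% of all listed genes were higher. The tetrapyrrole-binding protein (LOC103953604), of the GUN4 kind that assists magnesium chelatase, had 71.7, 81.1 and 70.7 normalized counts in boron libraries 1 to 3 and 8.97, 0 and 2.16 in control libraries 1 to 3, and its log2 fold change was 4.58 ± 0.70 (adjusted p = 1.10e-04 by limma). The ChlH subunit of magnesium chelatase, the enzyme that commits the pathway to chlorophyll, rose from 24.0 ± 6.33 to 166 ± 25.6 in LOC103941422 and from 40.6 ± 4.51 to 92.6 ± 4.95 in LOC103946503, the latter changing sign with TMM. Protochlorophyllide reductase, the light-dependent step, rose from 70.6 ± 22.6 to 300.4 ± 33.3 in LOC103966968 and from 221 ± 18.2 to 518 ± 69.3 in LOC103935530, which also changed sign with TMM. Geranylgeranyl diphosphate reductase, which supplies the phytol tail (LOC103931434), rose from 177 ± 21.3 to 704 ± 85.1 normalized counts. In these genes every boron library lay above every control library.

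The early and heme steps were mostly lower, in 4 of 5 members (26.2% of all listed genes were lower). Glutamate-1-semialdehyde aminomutase, which makes the first precursor of all tetrapyrroles (LOC103929993), fell from 838 ± 46.4 to 334 ± 19.0 normalized counts. Ferrochelatase-2, which inserts iron to make heme (LOC103949649), had 82.4, 50.5 and 79.5 normalized counts in boron libraries 1 to 3 and 229, 269.6 and 283 in control libraries 1 to 3. Heme oxygenase 1, which opens the heme ring (LOC103953945), fell from 146 ± 15.98 to 65.7 ± 17.96 normalized counts. Chlorophyll breakdown was split. Chlorophyll(ide) b reductase NYC1, which starts the breakdown of chlorophyll b (LOC103962968), had 187, 215 and 205 normalized counts in boron libraries 1 to 3 and 1457, 1301 and 1296 in control libraries 1 to 3, a log2 fold change of -2.73 ± 0.10 (adjusted p = 2.26e-09 by limma). Against it, 7-hydroxymethyl chlorophyll a reductase, the following step (LOC103935369), rose from 18.8 ± 3.40 to 56.8 ± 13.7, pheophytinase (PPH), which removes the phytol tail, rose from 88.8 ± 4.75 to 299 ± 18.8, and chlorophyllase-2 (LOC103935863) rose from 14.6 ± 0.581 to 85.0 ± 5.81 normalized counts. Of these 3 rises, 1 passed again with TMM, under which 33.4% of all listed genes were higher.

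Carotenoid and other isoprenoid genes were higher in 13 and lower in 4 of 17 members, a share of 76.5% near the 73.0% of all listed genes, with opposite directions along the pathway. Phytoene synthase 2, the entry step (LOC103933882), had 53.3, 75.7 and 68.7 normalized counts in boron libraries 1 to 3 and 0.997, 12.5 and 5.40 in control libraries 1 to 3. Phytoene dehydrogenase, the next enzyme (LOC103960366), went the other way, at a higher level per kilobase, and fell from 2561 ± 60.0 to 858 ± 118 normalized counts. Prolycopene isomerase (LOC103946374) rose from 4.61 ± 4.55 to 43.8 ± 11.01 normalized counts. Lycopene epsilon cyclase, which opens the branch to lutein (LOC103951887), had 2 reads in the control libraries and 44 in the boron libraries, a ratio of 20.1 (95% counting interval 5.25 to 171). Intervals of this kind cover counting error only.

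The branch to zeaxanthin held the largest fall of the role. Beta-carotene hydroxylase 2, which turns beta-carotene into zeaxanthin, had 2 genes, both lower. LOC103953392 had 7.75, 14.4 and 15.7 normalized counts in boron libraries 1 to 3 and 243, 229 and 235 in control libraries 1 to 3, a log2 fold change of -4.17 ± 0.28 (adjusted p = 1.83e-07 by limma), and LOC103964324 fell from 213 ± 27.3 to 89.6 ± 2.53 normalized counts. Zeaxanthin epoxidase, the following step, had 1 gene that fell, LOC103956812 (from 2794 ± 116 to 1172 ± 78.1 normalized counts), and 1 that rose, LOC103935128 (from 91.5 ± 22.9 to 199.5 ± 32.5), whose sign changed with TMM. Per kilobase the former was the more abundant in both groups. The 9-cis-epoxycarotenoid dioxygenase NCED3-like gene (LOC103945979), for the committed step of abscisic acid synthesis, rose from 54.9 ± 10.03 to 249 ± 7.81 normalized counts. Outside carotenoids, 2-carboxy-1,4-naphthoquinone phytyltransferase of phylloquinone synthesis (LOC103940989) had 52.8 ± 1.34 against 2.81 ± 2.63 normalized counts, with a log2 fold change of 4.18 ± 0.64 (adjusted p = 1.06e-04 by limma), and an ent-kaurene oxidase-like gene of gibberellin synthesis (LOC108865311) rose from 21.5 ± 5.13 to 321 ± 26.8 normalized counts.

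Genes of photosynthetic electron flow that remained among the members were higher without exception. All 14 rose, 11 of them again with TMM, and the median log2 fold change was 3.29. Of all listed genes 73.0% were higher, and 33.4% with TMM. The gamma chain of the plastid ATP synthase, the rotating shaft of that enzyme, had 2 genes. LOC103950613 had 128, 123 and 132 normalized counts in boron libraries 1 to 3 and 4.99, 3.12 and 3.24 in control libraries 1 to 3, a change of 4.77 ± 0.32 (adjusted p = 2.05e-07 by limma), and LOC103948177 had 112, 85.6 and 59.9 normalized counts in boron libraries 1 to 3 and 3.99, 0 and 4.32 in control libraries 1 to 3, a change of 4.82 ± 0.63 (adjusted p = 3.57e-05 by limma). PROTON GRADIENT REGULATION 5, a protein of cyclic electron flow, had no read in any control library in LOC103927033, against 18.03 ± 5.05 normalized counts in boron, at least 17.4-fold higher when the floor is set at 3 reads over the group. Its copy LOC103948669 had 1 control read and 55 boron reads, a ratio of 50.3 (95% counting interval 8.66 to 2022). Both copies were thus close to or at 0 in control fruit.

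Subunits and assembly factors of the NDH complex, which also serves cyclic electron flow, numbered 7 and all rose. Of these, 4 passed again with TMM and 3 with quantile scaling. Over all listed genes 73.0% were higher, and 33.4% with TMM. CHLORORESPIRATORY REDUCTION 6, needed for its assembly (LOC103949152), had no control read and 10.2 ± 4.88 normalized counts in boron, at least 9.75-fold higher, and its call was lost with quantile scaling. The member of the 7 with the highest level per kilobase, a subcomplex B 2 gene (LOC103967405), rose from 52.6 ± 8.54 to 133 ± 45.0 normalized counts but changed sign with TMM and DESeq2-type scaling. CCB1, an assembly factor of the cytochrome b6f complex (LOC103966594), rose from 15.3 ± 5.48 to 97.5 ± 11.1 normalized counts. STN8, a kinase that phosphorylates photosystem II proteins (LOC103930223), had 52.2 ± 9.43 against 4.93 ± 3.47 normalized counts, a log2 fold change of 3.40 ± 0.56 (adjusted p = 1.75e-04 by limma). It was the largest rise among signalling genes (3 higher, 2 lower). The larger of the 2 falls in that role was in phosphatase IMPL1 (LOC103965092), an inositol monophosphatase-like protein, which had 16.5, 15.3 and 8.83 normalized counts in boron libraries 1 to 3 and 166, 29.1 and 21.6 in control libraries 1 to 3. Its fall rests on control library 1, without which the log2 fold change was -0.89 (adjusted p = 0.0700 by limma) in place of -1.78 ± 0.65 (adjusted p = 0.0211 by limma), and the call was also lost without boron library 3 (-1.52, adjusted p = 0.0759 by limma).

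**Figure D3:**
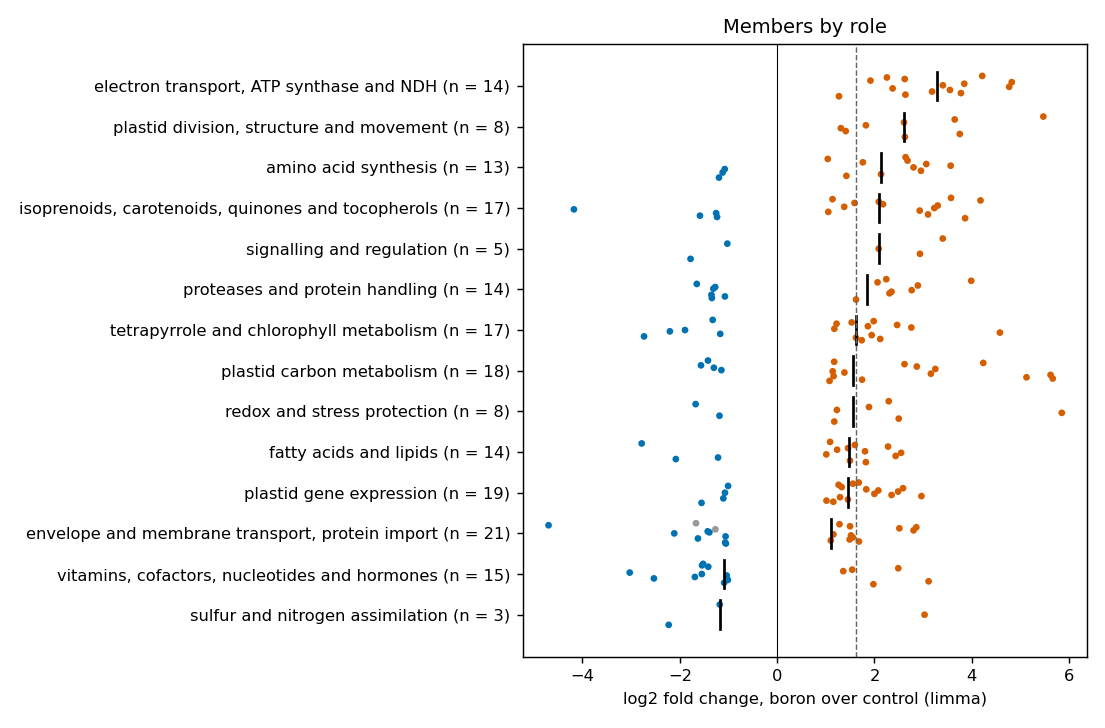
Log2 fold change of each member by role (limma, boron over control), orange where higher, blue where lower and grey where the test was not passed, with the role's median as a black bar and the median of all listed genes (1.62) as a dashed line; the 30 members without a role are not drawn. Electron transport and plastid movement show rises alone, while vitamins, cofactors and nucleotides have a median of -1.09.

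In carbon metabolism 14 members rose and 4 fell, a share of 77.8% higher that lies near the 73.0% of all listed genes. The 6 genes of glyceraldehyde-3-phosphate dehydrogenase, fructose-bisphosphate aldolase and CP12, all parts of the carbon fixation cycle or its control, were higher, 5 of them again with TMM. With TMM 33.4% of all listed genes were higher. Fructose-bisphosphate aldolase 1 (LOC103966935) had 297, 307 and 299 normalized counts in boron libraries 1 to 3 and 2.99, 5.20 and 7.56 in control libraries 1 to 3, a log2 fold change of 5.66 ± 0.31 (adjusted p = 3.99e-08 by limma), and its copy LOC103937074 had 33.5 ± 3.75 against 4.89 ± 2.35 normalized counts. Glyceraldehyde-3-phosphate dehydrogenase A had 119, 122 and 96.2 normalized counts in boron libraries 1 to 3 and 6.98, 1.04 and 1.08 in control libraries 1 to 3 in LOC103966613, a log2 fold change of 5.12 ± 0.53 (adjusted p = 5.86e-06 by limma), and rose from 12.7 ± 5.71 to 239.8 ± 6.23 normalized counts in LOC103936989. The B subunit (LOC103961743) had no control read and 48.6 ± 8.61 normalized counts in boron, at least 46.6-fold higher. CP12-1 (LOC103967177), a small protein that ties down enzymes of the cycle in the dark, had the highest level per kilobase of the 6. It rose from 661 ± 112 to 2202 ± 215 normalized counts, a call that was lost with TMM (log2 fold change 0.31).

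The oxidative pentose phosphate pathway was split. Plastid glucose-6-phosphate dehydrogenase, its first enzyme, rose from 20.46 ± 4.11 to 188 ± 1.44 normalized counts in LOC103961428, while isoform 4 (LOC103955874) fell from 1649.9 ± 43.1 to 745 ± 19.9 normalized counts. Phosphoglucan phosphatase LSF1, a protein of leaf starch breakdown in Arabidopsis (LOC103926927), fell from 55.7 ± 15.2 to 19.6 ± 1.11 normalized counts, a change of -1.42 ± 0.30 (adjusted p = 0.00101 by limma). The maltose exporter gene, maltose excess protein 1-like (LOC103951475), had 1568, 1723 and 1693 normalized counts in boron libraries 1 to 3 and 4309.7, 4539 and 4546 in control libraries 1 to 3, a log2 fold change of -1.43 ± 0.06 (adjusted p = 1.05e-08 by limma). It was one of the most abundant members, and its boron libraries were all below its control libraries.

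Plastid membrane transport and import had 11 members higher, 8 lower and 2 that did not pass, and 2 higher and 8 lower with TMM. Over all listed genes 73.0% were higher and 26.2% lower, and with TMM 33.4% and 28.9%. Short-chain dehydrogenase TIC 32, a redox component of the inner import complex, gave the largest fall of any member in LOC103932225 (in boron libraries 1 to 3 2.91, 8.11 and 10.8 normalized counts, in control libraries 169.5, 200.9 and 212). Its log2 fold change was -4.70 ± 0.39 (adjusted p = 1.05e-06 by limma), whereas 2 further genes with that description rose, neither of them again with TMM. Outer envelope protein 80, of the family that inserts proteins into the outer membrane (LOC103957884), fell from 1608 ± 89.6 to 519.9 ± 29.3 normalized counts. Among carriers, the glucose-6-phosphate/phosphate translocators, which bring hexose phosphate into non-green plastids, moved apart. Isoform 2 (LOC103948146) had 1345, 1121 and 1169 normalized counts in boron libraries 1 to 3 and 161, 182 and 175 in control libraries 1 to 3, and isoform 1 (LOC103967237) fell from 1121 ± 18.01 to 541 ± 34.99 normalized counts. A zinc transporter 4 gene (LOC103952105) fell from 529.7 ± 11.5 to 123 ± 27.4 normalized counts, and a cationic amino acid transporter 7 gene (LOC103933616) rose from 22.2 ± 9.66 to 159 ± 8.74 normalized counts, a change of 2.86 ± 0.29 (adjusted p = 4.43e-06 by limma).

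Aromatic amino acids are made in plastids through the shikimate pathway, and members for its entry and for the final step of phenylalanine were higher, while 2 members for steps between them were lower. DAHP synthase (phospho-2-dehydro-3-deoxyheptonate aldolase), the entry enzyme, rose in all 3 genes, none of which passed with TMM. The one with the highest level per kilobase, LOC103962023, had 3852, 4088 and 4017 normalized counts in boron libraries 1 to 3 and 1485, 1479 and 1494 in control libraries 1 to 3, a log2 fold change of 1.42 ± 0.06 (adjusted p = 6.48e-09 by limma) whose sign changed with TMM, and LOC103936340 rose from 237 ± 59.6 to 792 ± 77.3 normalized counts. The bifunctional dehydroquinate dehydratase/shikimate dehydrogenase gene (LOC103962879) had 2335, 2318 and 2342 normalized counts in boron libraries 1 to 3 and 5085, 5408 and 5532 in control libraries 1 to 3, a change of -1.19 ± 0.06 (adjusted p = 1.86e-08 by limma). Shikimate kinase, the step after it (LOC103957926), fell from 585 ± 10.4 to 269 ± 17.5 normalized counts. Arogenate dehydratase, which completes phenylalanine, rose in all 3 genes and again with TMM, the largest in LOC103954756 with 99.3 ± 25.5 against 11.8 ± 2.34 normalized counts and 2.95 ± 0.31 (adjusted p = 5.58e-06 by limma). Across all listed genes 73.0% were higher and 26.2% lower, and with TMM 33.4% were higher.

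Amino acid synthesis as a whole had 10 rises and 3 falls, a share of 76.9% higher near the 73.0% of all listed genes. Plastid glutamine synthetase, which assimilates ammonium in leaves, was near 0 in control fruit. LOC103943555 had no control read and 7.80 ± 3.52 normalized counts in boron, at least 7.62-fold higher, and LOC103932105 had 3 control reads and 31 boron reads, a ratio of 9.45 (95% counting interval 2.95 to 48.3). The call of LOC103932105 was lost with TMM and quantile scaling, and that of LOC103943555 with quantile scaling. Sulfur and nitrogen assimilation had 3 members, 1 higher and 2 lower, with a median log2 fold change of -1.18. Across all listed genes 26.2% were lower. Adenylyl-sulfate kinase 1, which draws activated sulfate away from reduction (LOC103952645), had 154, 215 and 195 normalized counts in boron libraries 1 to 3 and 878, 866 and 888 in control libraries 1 to 3, a log2 fold change of -2.23 ± 0.13 (adjusted p = 6.49e-08 by limma). Adenylylsulfate reductase 3, which reduces activated sulfate (LOC103951376), rose from 8.54 ± 4.33 to 72.3 ± 15.7 normalized counts, a change of 3.03 ± 0.41 (adjusted p = 4.12e-05 by limma). The rise passed again with TMM.

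Fatty acid synthesis was modestly higher, with 1 large fall. The 6 members for the carboxylase and the synthase cycle rose by 1.01 to 2.43 on the log2 scale, where 73.0% of all listed genes were higher. With TMM 2 of them passed as higher and 2 as lower, and 3 in all changed sign. Across all listed genes 33.4% were higher and 28.9% lower with TMM. Enoyl-[acyl-carrier-protein] reductase, which ends each cycle, had 3 genes. LOC103959004 had 1036, 1071 and 1103 normalized counts in boron libraries 1 to 3 and 219, 172 and 203 in control libraries 1 to 3, LOC103964860 rose from 149.7 ± 6.96 to 532 ± 22.1 and LOC103940555 from 178 ± 14.8 to 542 ± 66.4 normalized counts, and the first 2 passed again with TMM. Beta-ketoacyl synthase I (LOC103951262) rose from 684 ± 39.7 to 1608 ± 98.7 normalized counts and was lower with TMM. The stearoyl-[acyl-carrier-protein] 9-desaturase 6 gene, for the enzyme that sets the first double bond (LOC103939571), had 131, 124 and 108 normalized counts in boron libraries 1 to 3 and 861, 812 and 838 in control libraries 1 to 3, a log2 fold change of -2.78 ± 0.12 (adjusted p = 5.55e-09 by limma). Allene oxide cyclase 4 of jasmonate synthesis (LOC103947146) rose from 133 ± 8.98 to 649 ± 35.7 normalized counts, and a plastid-lipid-associated protein 12 gene (LOC103954005) rose from 9.67 ± 3.02 to 59.7 ± 6.42 normalized counts, a change of 2.55 ± 0.35 (adjusted p = 4.53e-05 by limma).

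**Figure D4:**
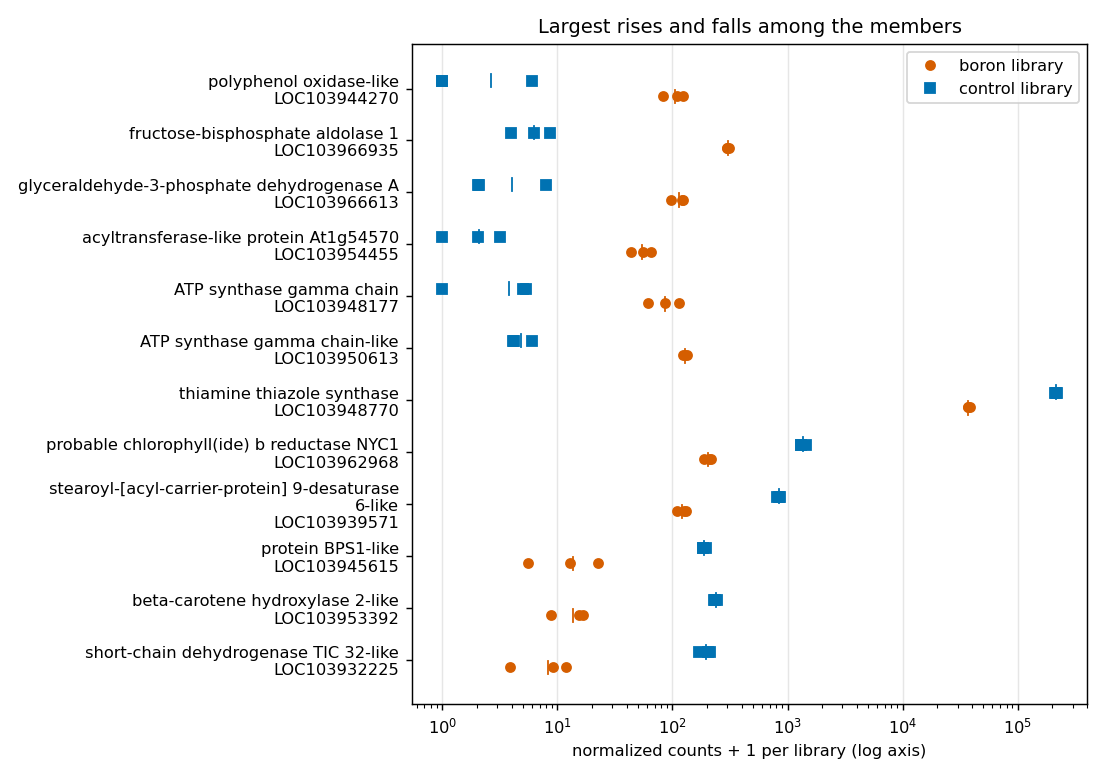
Normalized counts + 1 in each boron library (orange circles) and control library (blue squares) of the 6 largest rises and 6 largest falls among members with at least 50 normalized counts in the higher group, on a log axis, with group means as vertical ticks. The rises start from 6 or fewer mean normalized counts in control fruit, whereas the falls start from means of 186 or more, and no gene has overlapping groups.

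Among genes of plastid protein turnover, those of the Clp protease, the main soluble protease of the stroma, were lower. All 5 genes of its core and its accessory T subunit fell, with log2 fold changes from -1.65 to -1.07. Of all listed genes 26.2% were lower. The proteolytic subunit-related protein 2 gene LOC103962376 had 1019, 1009.7 and 938 normalized counts in boron libraries 1 to 3 and 2489, 2539 and 2489.6 in control libraries 1 to 3, a change of -1.34 ± 0.07 (adjusted p = 2.40e-08 by limma). Subunit 6 (LOC103930296) fell from 67.3 ± 19.7 to 21.3 ± 9.25 with a change of -1.65 ± 0.35 (adjusted p = 9.77e-04 by limma), subunit-related protein 4 (LOC103960311) fell from 2117 ± 76.2 to 829.9 ± 23.3, and CLPT1 (LOC103945812) fell from 1117 ± 65.5 to 449.8 ± 25.9 normalized counts. CLPS1, an adapter that picks substrates (LOC103929811), rose instead from 3.13 ± 1.09 to 19.2 ± 14.9 normalized counts, a call that was lost with TMM and DESeq2-type scaling and whose sign changed with quantile scaling. ALBINO3-like protein 2, of a family that inserts membrane proteins (LOC103938542), had 195, 309 and 237 normalized counts in boron libraries 1 to 3 and 28.9, 44.8 and 24.8 in control libraries 1 to 3, a log2 fold change of 2.89 ± 0.26 (adjusted p = 1.84e-06 by limma).

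Plastid gene expression had 15 rises and 4 falls, a share of 78.9% higher near the 73.0% of all listed genes. With TMM 3 rises and 4 falls passed, so most of these rises did not pass again. Over all listed genes the share higher also dropped with TMM, to 33.4%. Elongation factor Tu of plastid translation (LOC103952946) had 62.9 ± 12.3 against 7.58 ± 3.60 normalized counts, a change of 2.96 ± 0.40 (adjusted p = 4.21e-05 by limma). Ribosomal protein S20 (LOC103932731) fell from 1052 ± 86.1 to 522 ± 38.7 normalized counts, while 4 further ribosomal protein genes rose, none of which passed with TMM. MTERF6, of a family of organelle transcription terminators (LOC103963512), fell from 116 ± 7.23 to 39.2 ± 7.33 normalized counts, a change of -1.55 ± 0.22 (adjusted p = 5.84e-05 by limma).

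Genes annotated to chloroplast movement were higher. CHUP1 anchors chloroplasts to actin and is needed in Arabidopsis for their repositioning in light. All 8 genes described as CHUP1 or CHUP1-like were higher, 5 again with TMM. That they share the function of CHUP1 rests on the description alone. Of all listed genes 73.0% were higher, and 33.4% with TMM. Among those averaging over 10 and up to 100 normalized counts 79.2% rose, and the median mean of the CHUP1 genes was 24.5. LOC103944794, the smallest rise (from 15.4 ± 6.57 to 38.5 ± 9.81), changed sign with TMM, DESeq2-type and quantile scaling. The copy with the highest level per kilobase, LOC103939936, had 626, 641 and 675 normalized counts in boron libraries 1 to 3 and 107, 116 and 95.05 in control libraries 1 to 3, a log2 fold change of 2.61 ± 0.12 (adjusted p = 1.32e-08 by limma). LOC103929203 had no read in any control library and 33.9, 45.1 and 53.0 normalized counts in boron libraries 1 to 3, at least 42.4-fold higher. Its annotated end overlaps by a few bases the gene LOC103929204 on the opposite strand, which fell from 169.9 ± 17.2 to 82.8 ± 12.5 normalized counts. Control levels of the copies thus ranged widely, and 2 of the 8 had no control read.

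Among proteins of redox and stress protection, 6 rose and 2 fell, a share of 75% higher near the 73.0% of all listed genes. Polyphenol oxidase, the enzyme of tissue browning, had 3 genes. LOC103927236 had 6163, 5965 and 6487 normalized counts in boron libraries 1 to 3 and 1307, 1226 and 1263 in control libraries 1 to 3, a change of 2.29 ± 0.06 (adjusted p = 3.70e-10 by limma), and LOC103944270, 5 reads in control fruit in all, had 109.5, 82.0 and 124 normalized counts in boron libraries 1 to 3 and 4.99, 0 and 0 in control libraries 1 to 3. The latter was the largest rise of any member by the linear model, 5.85 ± 0.67 (adjusted p = 1.22e-05 by limma), and both lie within 41522 bases of each other on scaffold NW_008988039.1. The third gene, LOC103944298, fell from 1832 ± 90.7 to 805 ± 33.0 normalized counts. Ferritins, the iron stores of the plastid, also parted: ferritin-4 (LOC103930157) had 1086, 1074 and 1001 normalized counts in boron libraries 1 to 3 and 3121, 3419.8 and 3562 in control libraries 1 to 3, a change of -1.67 ± 0.07 (adjusted p = 8.96e-09 by limma), and ferritin-3 (LOC103958647) rose from 353 ± 23.9 to 814 ± 219 normalized counts, with a changed sign under TMM.

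The members without an assigned role included families whose copies all went in 1 direction (73.0% of all listed genes were higher and 26.2% lower). BPS1-like genes, similar to a gene that in Arabidopsis restrains a root-derived signal, fell in all 3 copies. LOC103945615 had 21.3, 4.51 and 11.8 normalized counts in boron libraries 1 to 3 and 182, 195 and 181 in control libraries 1 to 3, a change of -4.01 ± 0.43 (adjusted p = 7.28e-06 by limma). LOC103957671 fell from 71.2 ± 4.73 to 18.2 ± 16.4 and LOC103957673, its neighbour at a distance of 4911 bases, from 27.3 ± 3.85 to 2.90 ± 1.73 normalized counts. An acyltransferase-like gene similar to At1g54570 of Arabidopsis (LOC103954455) had 3 control reads against 169 boron reads, a ratio of 51.5 (95% counting interval 17.3 to 252), with a log2 fold change of 4.85 ± 0.53 (adjusted p = 8.08e-06 by limma). Genes similar to At3g09070, of the UPF0503 group, rose in all 5 copies and 2 again with TMM, the one with the highest level per kilobase (LOC103959584) from 34.1 ± 8.05 to 347 ± 51.5 normalized counts. Crocetin glucosyltransferase-like genes rose in all 3 copies and 1 again with TMM, and LOC103962577 had 1917, 1915 and 2158 normalized counts in boron libraries 1 to 3 and 407, 401 and 399 in control libraries 1 to 3.

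**Figure D5:**
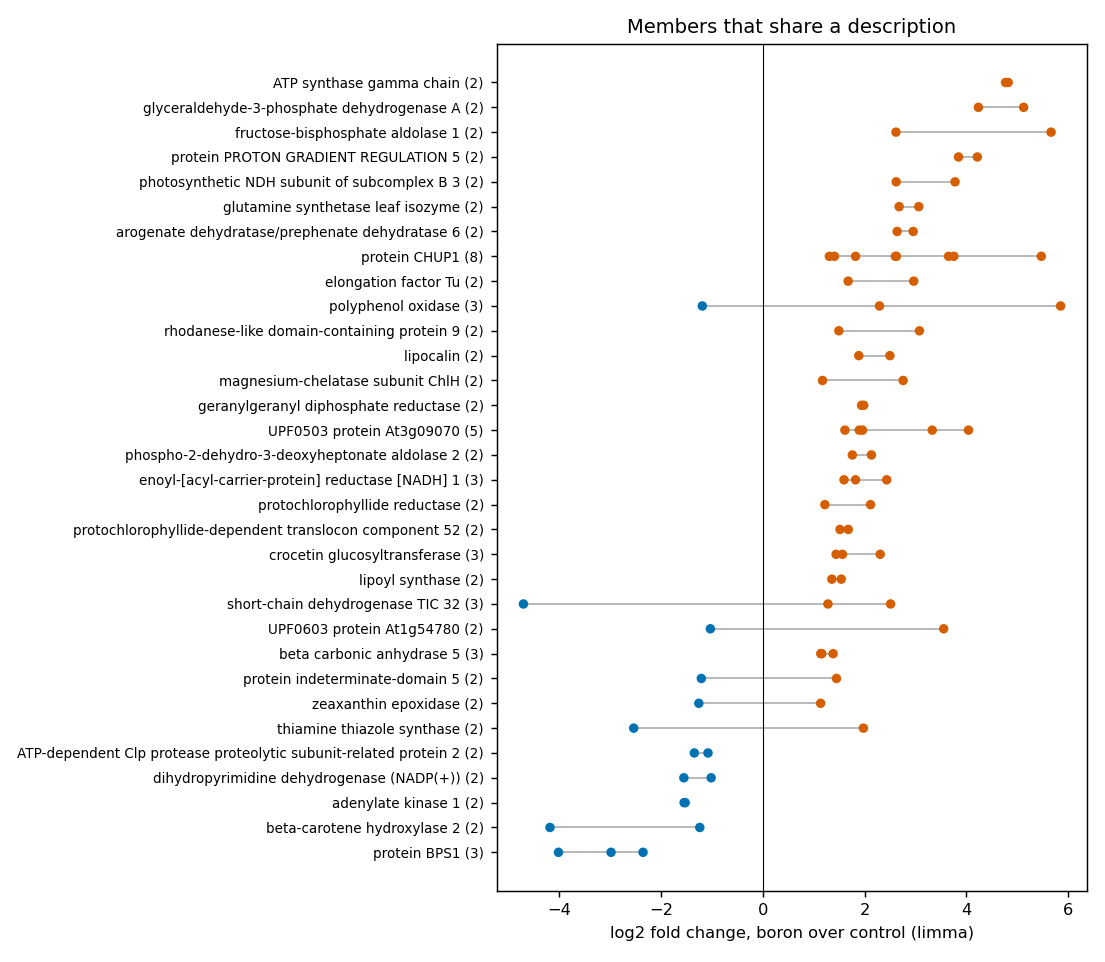
Log2 fold change (limma, boron over control) of members that share a description, 1 row per description with the number of genes in brackets, orange where higher and blue where lower. In 21 of the 32 families all genes were higher, in 5 all were lower, and in 6 the genes lie on both sides of 0.

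Copies with the same description were compared next. Of 32 families with at least 2 members (79 genes), 21 had only rises, 5 only falls and 6 both, where 73.0% of all listed genes were higher. In 6 of the 21 every gene passed as higher again with TMM, and in 5 at least 1 gene changed sign. The 6 with both were thiamine thiazole synthase, polyphenol oxidase, TIC 32, zeaxanthin epoxidase, the UPF0603 protein similar to At1g54780, and indeterminate-domain 5. The last is a pair of transcription factor genes 3965 bases apart, of which LOC103943147 fell from 182 ± 21.8 to 78.6 ± 12.7 normalized counts and LOC103943149 rose from 341 ± 21.5 to 933 ± 83.6 normalized counts, a rise whose call was lost with TMM (log2 fold change 0.012) and DESeq2-type scaling (0.057).

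The 95 chloroplastic genes left out of the members had 88 rises and 6 falls, with a median log2 fold change of 3.04, and 67 rises and 9 falls with TMM. The 53 genes described as mitochondrial had 25 rises and 28 falls, with a median of -1.01, and 11 rises and 32 falls with TMM. These are descriptions, and no test of a difference between classes was made. Markers of other tissues moved too, in a table where 73.0% of all listed genes were higher. They were picked by description and were not checked for expression in pulp cells. Of 7 peel markers 6 rose and 1 fell, and their summed level was 1113 to 1198 normalized counts in boron and 418 to 464 in control libraries. All 7 vascular markers rose, and their sum was 148 to 169 in control and 614 to 699.6 in boron libraries. This list mixed sieve element occlusion and phloem protein genes with laccases and cellulose synthase A subunits. Of 6 seed markers 5 rose and 1 fell, with a summed 2309 to 2590.1 in control and 1905 to 2044 in boron libraries. The fall of the sum came from a legumin B-like gene (LOC103946296), which went from 2235 ± 167 to 931 ± 104 normalized counts. Those that rose were late embryogenesis abundant, vicilin-like, oleosin and legumin type B-like genes. A peel marker, a lipid-transfer protein 1-like gene, was at 0 reads in every control library and had 17 reads in the boron libraries. The peel marker that fell, a GLABRA 2-like gene (LOC103944856), went from 270 ± 24.4 to 93.7 ± 9.47 normalized counts. The part of these tissues in the changes above was not tested, and in bulk tissue fewer cells of a type and less RNA per cell cannot be told apart.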

How the data were processed

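RNA of pear pulp was sequenced in 3 boron and 3 control libraries. Per the submitters' processing notes, HISAT2 was used. Counter, genome build and strand setting: not given in the sources used here. The deposited table holds a signal per gene and library, normalized counts that the authors made by dividing counts by 1 size factor per library (0.926 to 1.11). Its values were whole multiples of 1 step per library within a tolerance of 0.001 reads in 100% of cases, so reads could be recovered. The test planned for such values was used. The authors' log2 fold changes (at least 1.00 in size) and the deposited p-values (adjusted, at most 0.0499) show that listed genes were selected on these libraries. The deposited score per gene was used only to describe direction. Genes stand on the table's own scaffolds.

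Differences were tested two-sided with limma 3.58.1 (trend, robust) in R 4.3.3 on log2(normalized count + 1), a scale that understates changes of low genes, with Benjamini-Hochberg adjustment over 4291 genes and a threshold of 0.05. The script was tested on simulated data in which few genes changed, equally in both directions and none of them scarce. That test says nothing about scaling or scarce genes in the listed set. Alternatives used edgeR 4.0.16 and DESeq2 1.42.0 on recovered reads, other scalings, pseudocounts and filters, a replicate block, 1 entry per description and leaving out each library.

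The members and lists were chosen with earlier results of these data known. Roles came from patterns on descriptions, after which 43 members were moved by hand to the role of their function. Genes named by rule (35) were the 6 largest rises and 6 largest falls with at least 50 normalized counts in the higher group, the largest rise and fall of each role, and the 8 most abundant members. Another 66 members were picked with their values in view. Counting intervals are at 95%, and the floor is 3 reads over a group.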

Additional observations from a re-analysis of the deposited data

How the results depend on the processing

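Counts of calls and the members' median log2 fold change were recomputed under 18 alternatives. With TMM, 69 members and 1433 listed genes were higher and the members' median was 0.12. DESeq2-type size factors left 75 members and 1486 listed genes higher, with a median of 0.16. Quantile normalization left 90 members and 1522 listed genes higher, with a median of 0.46. These scalings centre on the listed genes. With genes of a mean of at least 100 normalized counts alone, fewer genes were tested, and 56 members and 1049 listed genes were higher, 635 listed genes were lower and the median was 1.08. A pseudocount of 5 gave a median of 1.33, as its construction shrinks low genes. Leaving out 1 library gave 148 to 151 members higher, 61 to 63 lower, a median of 1.49 to 1.55, and 3095 to 3109 listed genes higher and 1111 to 1119 lower. Same-numbered libraries had correlations of deviations of -0.0133, 0.0256 and -0.0389, so the numbers do not pair them. The replicate block gave 151 members higher and 62 lower, and 3127 and 1131 listed genes.

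Of the 101 named members, signs changed as follows, and the cause was not tested. With TMM the log2 fold change was -0.29 in LOC103935128, -0.21 in LOC103935530, -0.068 in LOC103944794, -0.24 in LOC103946503, -0.21 in LOC103951262, -0.26 in LOC103958647, -0.017 in LOC103962023, -0.15 in LOC103967405 and -0.39 in LOC108867675. With DESeq2-type size factors it was -0.25 in LOC103935128, -0.17 in LOC103935530, -0.024 in LOC103944794, -0.20 in LOC103946503, -0.16 in LOC103951262, -0.22 in LOC103958647, -0.11 in LOC103967405 and -0.35 in LOC108867675. With quantile normalization it was -0.044 in LOC103929811, -0.14 in LOC103944794 and -0.95 in LOC108867675. Without boron library 1 it was -0.70 in LOC108867675 (range over left-out libraries -0.70 to 1.57), and without control library 2 it was 0.46 in LOC103942185 (range -2.39 to 0.46). Neither gene passed as reported. Depth limits the genes with few control reads, since 17 to 19 members were at 0 in each control library and 0 to 1 in each boron library.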

Other observations

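In the deposited score table, 3 members stood among the 100 highest scores of all 42194 genes. They were LOC103966935 (fructose-bisphosphate aldolase 1, rank 26), LOC103950613 (ATP synthase gamma chain, rank 35) and LOC103954455 (acyltransferase-like, rank 91). Among the 100 lowest were 5 members, with LOC103932225 (TIC 32-like) at rank 34 and LOC103953392 (beta-carotene hydroxylase 2) at rank 38 from the bottom. The score divides a difference of means by a sum of SDs from the same libraries, each SD set to at least 0.2 of its mean, so where the measured spread is smaller the score follows the ratio of the means. These ranks are not independent of the values above.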
